A study of Caenorhabditis elegans with 2 samples.

Results

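Autosomal promoter peaks are the peaks of the pooled ChIP-seq list that lay at the starts of protein-coding genes on chromosomes I to V of Caenorhabditis elegans. A peak was a member when its summit, the position of its highest point, was at most 500 bp away from the start of a protein-coding transcript. The summit also had to lie more than 200 bp from any tRNA, snRNA, snoRNA or rRNA gene. This rule found 2178 members among the 9606 peaks of the pooled list (22.7%). The same rule gave 2918 of 12866 peaks in the list of replicate 2 and 2995 of 13745 in the list of replicate 3. They were set against the 4417 other autosomal peaks away from small RNA genes, called peaks outside promoters, and against 589 peaks that met the same rule on X.

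The 2 biological replicates, numbered 2 and 3, were whole young adult hermaphrodites of strain OP465, collected 64 hours after starved L1 larvae had been synchronized. All animals carried the allele unc-119(tm4063) on III and the transgene wgIs465, which expresses NHR-179 with a GFP-FLAG tag at its C-terminus, and chromatin was precipitated with an antibody against GFP. Both replicates formed 1 group, so nothing could be compared between conditions, and no untagged strain was analysed here. Which peaks reflect binding of NHR-179 was therefore not tested. The promoter that drives the transgene is not given in the sources used here. The files held no read counts, so the depth behind each peak is unknown, and the pooled and replicate lists hold background regions as well as peaks.

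Nuclear hormone receptors are transcription factors that bind DNA through a domain of zinc fingers, and many of them are switched by small lipophilic ligands. The nematode family is much larger than those of insects and mammals, and most of its members, NHR-179 among them, have no known ligand. In C. elegans the sequence around a gene's start holds the core promoter, and promoters of highly expressed genes often appear in ChIP experiments with unrelated factors. Many nematode transcripts receive a spliced leader, so that the annotated start can lie downstream of the site where transcription begins.

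The summit sequences of 7 members with high signal show what the strongest peaks of the set looked like. They are those of rpl-3, set-16, lin-52, ZK112.4, Y75B8A.23, F42A6.6 and rpl-15, all in the authors' optimal list and found in both replicates. Each window holds the summit, at base 51, and 50 bases to either side, on the strand of its gene and read 5′ to 3′. The capitals mark the short motifs searched for in all members on either strand, which in these windows were the purine repeat GAGAGA, the Sp1 site GGGCGG, the nuclear receptor variant AGTTCA, the E-box CACGTG and the word AGCGTG. In the set-16 window CCGCCC is the Sp1 site on the other strand. On ce11 the windows are chrIII:3867539-3867639 (rpl-3, plus strand), chrIII:13643705-13643805 (set-16, plus strand), chrIII:9824600-9824700 (lin-52, minus strand), chrIII:7729628-7729728 (ZK112.4, minus strand), chrIII:12250736-12250836 (Y75B8A.23, plus strand), chrIV:3336736-3336836 (F42A6.6, minus strand) and chrIV:654890-654990 (rpl-15, minus strand).
rpl-3: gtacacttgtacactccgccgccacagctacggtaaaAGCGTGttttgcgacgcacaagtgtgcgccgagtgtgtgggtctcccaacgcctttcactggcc
set-16: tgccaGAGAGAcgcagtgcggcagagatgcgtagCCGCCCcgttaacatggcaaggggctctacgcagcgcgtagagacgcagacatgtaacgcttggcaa
lin-52: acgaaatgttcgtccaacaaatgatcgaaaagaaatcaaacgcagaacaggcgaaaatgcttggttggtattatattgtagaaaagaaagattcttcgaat
ZK112.4: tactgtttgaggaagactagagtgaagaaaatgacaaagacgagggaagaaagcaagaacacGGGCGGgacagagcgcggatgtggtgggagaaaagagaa
Y75B8A.23: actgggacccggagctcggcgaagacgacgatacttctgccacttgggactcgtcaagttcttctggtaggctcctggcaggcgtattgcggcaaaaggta
F42A6.6: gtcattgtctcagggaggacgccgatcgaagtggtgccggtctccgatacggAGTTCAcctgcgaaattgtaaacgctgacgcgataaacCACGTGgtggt
rpl-15: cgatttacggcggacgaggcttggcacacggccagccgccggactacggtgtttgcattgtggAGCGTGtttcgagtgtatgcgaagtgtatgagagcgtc

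The windows differed widely in base composition. Those of rpl-3 and rpl-15, upstream of ribosomal protein genes, each had 58.4% GC and held the word AGCGTG. The set-16 window had 60.4% GC and 10 CpG dinucleotides. The windows of lin-52 (34.7% GC) and Y75B8A.23 (57.4% GC) held none of the motifs searched.

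Among the 2178 members, 16 (0.735%) were in the optimal list, which the authors made by ranking how well peaks recur between replicates. Of the whole pooled list, which also holds peaks near small RNA genes, 2.67% were in the optimal list. The share of the members lay under that of all peaks and near the 0.679% of autosomal peaks outside promoters. The signal of the 16, the authors' score for each peak, ran from 76.0 to 113.8. The scaling of this score is not stated, so replicates are set side by side by the rank of the peak within each list. Signal chose the optimal list, and the order of the 16 is therefore a description.

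In 7 of these 16 peaks the summit lay upstream of the nearest start. The highest member was at rpl-3, which encodes a protein of the large ribosomal subunit, on III from 3867367 to 3867810. Its summit lay at -265, upstream of the start, with a signal of 113.8, and the peak ranked 128 in replicate 2 and 74 in replicate 3. The rpl-15 peak, also upstream of a gene of the large subunit, lay on IV from 654718 to 655161 with its summit at -364 and a signal of 79.1. It ranked high in both lists, with a signal of 41.6 in replicate 2 and 42.8 in replicate 3. The gene K11H12.8 starts on the other strand, and the same summit lies at -450 from it.

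The set-16 peak had the next highest signal, 109.1, on III from 13643533 to 13643976. It lay between set-16, which encodes a histone H3 lysine 4 methyltransferase of the MLL family, and the divergent gene drr-2, at -161 and -185 from their starts. Its signal was 68.8 in replicate 2 (rank 60) and 40.9 in replicate 3 (rank 254). The peak of tasp-1, a homolog of the protease taspase that cleaves MLL proteins in mammals, lay on III from 10759063 to 10759506 with its summit at -22. It had a signal of 91.6, with 44.3 in replicate 2 and 45.3 in replicate 3. At lin-52, which encodes a subunit of the DRM complex, a repressor of cell cycle and germ line genes, the summit lay at -80 inside a coding exon, with a signal of 87.2. That peak, on III from 9824428 to 9824871, ranked 142 in replicate 2 and 675 in replicate 3.

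The egl-30 peak lay on I from 1835335 to 1835778, at -104 from the start of the gene for the alpha subunit of the G protein Gq. Its signal was 80.05, with 44.8 in replicate 2 and 37.1 in replicate 3, and its window had the highest GC content of the 16, 64.4%. At F53A3.7, on III from 1951257 to 1951700, the summit lay at -47 with a signal of 79.96. This peak was uneven, with rank 3939 in replicate 2 and rank 90 in replicate 3.

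The other 9 of the 16 summits lay downstream of the start. At dpf-3, which encodes a dipeptidyl peptidase, the peak lay on I from 6838206 to 6838649, at 74 bp from the start in a coding exon. Its signal was 103.9, with 54.98 in replicate 2 and 50.8 in replicate 3. At kel-3, a gene for a protein with kelch repeats, the peak lay on III from 13464650 to 13465093, at 43 bp from the start, with a signal of 100.45. Both of these peaks ranked within the highest 200 of either replicate list.

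The nas-4 peak lay in an intron of this gene for an astacin metalloprotease. Its signal was 79.85, with 44.4 in replicate 2 and 35.6 in replicate 3. ZK112.4, on III from 7729456 to 7729899, had its summit in an intron at 333 bp and a signal of 85.8. At dct-16, a gene named for its control by the transcription factor DAF-16, the peak (V from 20497513 to 20497956) had a signal of 76.8. That summit was 487 bp from the start of a short transcript and beyond the end of the gene.

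Downstream summits in coding exons were also found at F42A6.6, Y75B8A.23 and Y71F9AL.8. The F42A6.6 peak, on IV from 3336564 to 3337007, had its summit at 68 bp and a signal of 79.9, and ranked 130 in replicate 2 and 1956 in replicate 3. At Y75B8A.23, on III from 12250564 to 12251007, the signal was 85.6 and the ranks were 4977 in replicate 2 and 68 in replicate 3. Its summit lay 211 bp from a small RNA gene, just outside the distance at which a peak is left out. The Y71F9AL.8 peak, on I from 2878365 to 2878808, had its summit at 9 bp and a signal of 76.0. The last of the 16, at Y53G8AL.4 on III from 3248995 to 3249438, had a signal of 77.6, but no summit of replicate 2 lay within 100 bp of it. Its signal in replicate 3 was 51.9.

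**Figure D1:**
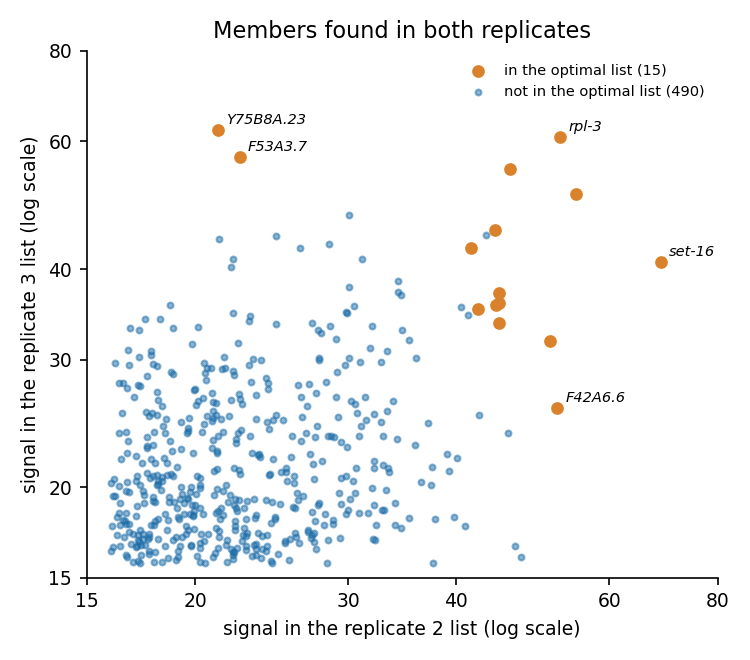
Signal of the 505 members found in both replicates, with the replicate 2 list on the x axis and the replicate 3 list on the y axis (both log scales, in the authors' units). The 15 optimal peaks found in both, in orange, reach 68.8 in replicate 2 and 62.2 in replicate 3, and Y75B8A.23 and F53A3.7 are high in replicate 3 only.

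The next 15 members by signal, found in both replicates and not in the optimal list, had signals from 65.8 to 74.4. They included several regulators. The wwp-1 peak, at a gene for a ubiquitin ligase of the HECT class, lay on I from 536690 to 537133 at -210 from the start, with a signal of 73.15. The hif-1 peak, at the gene for the hypoxia-inducible factor, lay on V from 20782369 to 20782812 in an intron at 119 bp, with a signal of 71.3. Its signal was 40.4 in replicate 2 (rank 307) and 35.4 in replicate 3 (rank 430). At ceh-38, which encodes a homeobox factor of the ONECUT class, the summit lay at -41 between divergent genes, on II from 6951263 to 6951706, with a signal of 68.8. At pcf-11, whose product acts in cleavage and polyadenylation of transcripts, the summit lay at -33 with a signal of 68.0.

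Metabolic and structural genes made up others of these 15. The pck-2 peak lay 46 bp from the start of this gene for phosphoenolpyruvate carboxykinase, on I from 7866073 to 7866516, with a signal of 71.2. The sms-3 peak, at a gene for a sphingomyelin synthase, had a signal of 67.6, with 28.5 in replicate 2 and 43.2 in replicate 3. At tba-7, a gene for an alpha tubulin, the summit lay in an intron at 347 bp with a signal of 65.8. Peaks at madf-10 (signal 74.4), K08D8.2 (70.8), Y22D7AL.10 (70.6), pqn-51 (69.2), T19H12.2 (68.5), Y49A3A.3 (66.9), pcrg-1 (66.7) and W08A12.2 (66.7) completed the 15. They lay on all 5 autosomes, with summits from -242 to 472 bp of the start.

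Most members were found in 1 replicate. A member counted as found in a replicate when that list held a summit within 100 bp of the pooled one. By this measure 505 of the 2178 members (23.2%, exact Clopper-Pearson 95% interval 21.4 to 25.02%) were found in both replicates, near the 24.7% of the whole pooled list. Of the rest, 684 were found in replicate 2 alone, 717 in replicate 3 alone and 272 (12.5%) in neither. All intervals on shares are of this kind and cover counting error over peaks or genes only. Across the 505, the signals of the replicates had a Spearman rho of 0.224, a value across peaks that share their libraries, and 276 ranked higher within the replicate 2 list.

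No difference in recurrence, or in the share of peaks in the optimal list, passed the test. Members were found in both replicates in 23.2% of cases and autosomal peaks outside promoters in 21.6% (952 of 4417), a difference of 1.63 percentage points (95% interval -0.489 to 3.81). The 2-sided Fisher's exact test gave p = 0.138, or 0.345 after Benjamini-Hochberg adjustment over the 4 comparisons made. Against the X promoter peaks, of which 153 of 589 (25.98%) were found in both, the difference was -2.79 points (-6.86 to 1.05), with adjusted p = 0.345 by the same Fisher's exact test. In the optimal list were 0.735% of the members, 0.679% of the autosomal peaks outside promoters (30 peaks) and 1.19% of the X promoter peaks (7 peaks). The differences were 0.0554 points (-0.348 to 0.554) and -0.454 points (-1.73 to 0.309), with adjusted p = 0.875 and 0.406 by Fisher's exact test.

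These tests count peaks, which are not replicates of a condition. With promoters drawn at 250 bp, the difference in recurrence from peaks outside promoters was 3.34 points and passed the threshold of 0.05 (Fisher's exact test, adjusted p = 0.0411). Found in replicate 3 without regard to replicate 2, members exceeded X promoter peaks by 0.758 points, the other direction from the result above (Fisher's exact test, adjusted p = 0.875). In the highest peaks of replicate 2 alone, the share of members lay below that of peaks outside promoters (difference -0.286 points, Fisher's exact test, adjusted p = 0.223), again the other direction. Peaks that met the distance to a start but lay near a small RNA gene, and so were left out, numbered 100. Of these 51% were found in both replicates and 23 were optimal.

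Recurrence followed the rank of the peak in the pooled list, in members and in other autosomal peaks alike. The pooled list was derived from these same 2 replicates, so rank and recurrence are not independent and a fall with rank is partly built in. From the highest to the lowest of 6 rank classes, members were found in both replicates in 93.75%, 76.6%, 65.0%, 52.4%, 33.6% and 6.78% of cases. Autosomal peaks outside promoters gave 93.3%, 80.6%, 69.2%, 49.3%, 32.3% and 6.97%. The intervals overlapped in every class. The lowest class, ranks 4097 to 9606, held 1254 of the 2178 members.

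**Figure D2:**
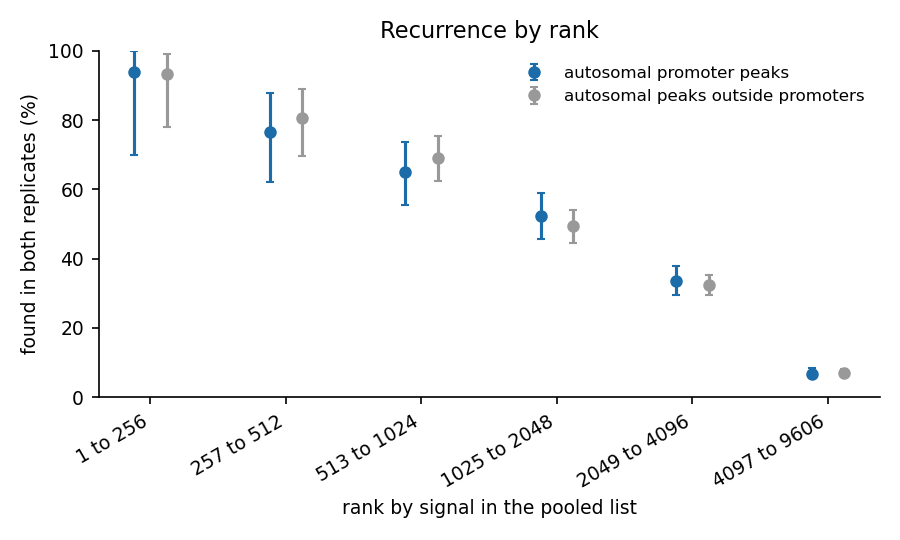
Share of peaks found in both replicates (y axis, %) by rank class in the pooled list (x axis), for autosomal promoter peaks (blue) and autosomal peaks outside promoters (grey), with exact 95% intervals. Members go from 93.75% in the highest class to 6.78% in the lowest, beside 93.3% and 6.97% for peaks outside promoters.

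Promoters held more of the autosomal peaks than their share of bases. Of the 6595 autosomal peaks away from small RNA genes, the 2178 members made up 33.0% (31.9 to 34.2%). Promoters held 24.0% of the 82158307 autosomal bases away from small RNA genes, with repeated sequence counted in. The lists of the replicates gave 31.6% in replicate 2 and 30.7% in replicate 3. On X the shares were 24.2% of peaks and 18.8% of bases. By rank class the promoter share lay between 31.7% and 39.5%, with 34.8% in the highest class and 31.7% in the lowest. No test was made of these shares, which are set beside the bases as a description.

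Promoter and other peaks were alike in signal. Members had a median signal of 36.2 (30.1 to 113.8), autosomal peaks outside promoters 35.6 and X promoter peaks 36.3. The deposited −log10 of the q-value had a median of 0.0880 in members (0.0176 to 2.48). Its median was 0.0800 in autosomal peaks outside promoters and 0.0886 in X promoter peaks. Low values mean weak evidence for a peak, so by this score the typical member was not a significant peak. Every member was 444 bp wide, and the best ranked 82 in the pooled list. Just inside the distance limit, the 168 members at 451 to 500 bp had a median signal of 36.4 with 22.02% found in both replicates. The 131 peaks just outside it, at 501 to 550 bp, had a median of 35.5 with 19.8% found in both.

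Summits gathered at the start and just inside the gene. In the pooled list the most filled stretch of 100 bp was the one from 0 to 99 bp downstream, with 307 members (14.1%, 12.7 to 15.6%) where 11.3% of the eligible bases lay, a ratio of 1.25. Eligible bases are all autosomal positions that meet the rule. Next came the stretch from -100 to -1, with 12.4% of members against 11.2% of bases. The far upstream stretches were the least filled, with 5.33% against 8.79% at -400 to -301 and 6.06% against 8.19% at -500 to -401. In the replicate lists the share from 0 to 99 bp was 13.1% in replicate 2 and 12.99% in replicate 3. In replicate 2 the stretch from -100 to -1 was fuller, with 13.7%, and among members found in both replicates each of these stretches held 14.1%. At -400 to -301 it was 6.20% in replicate 2 and 7.98% in replicate 3, both also under the 8.79% of bases.

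Upstream summits made up 44.2% of members (42.1 to 46.3%), against 47.8% of eligible bases. The median summit lay 37 bp downstream of the start, with quartiles at -161 and 242 bp, and the median eligible base at 18 bp. For members found in both replicates the median was 19 bp, the same as for X promoter peaks.

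**Figure D3:**
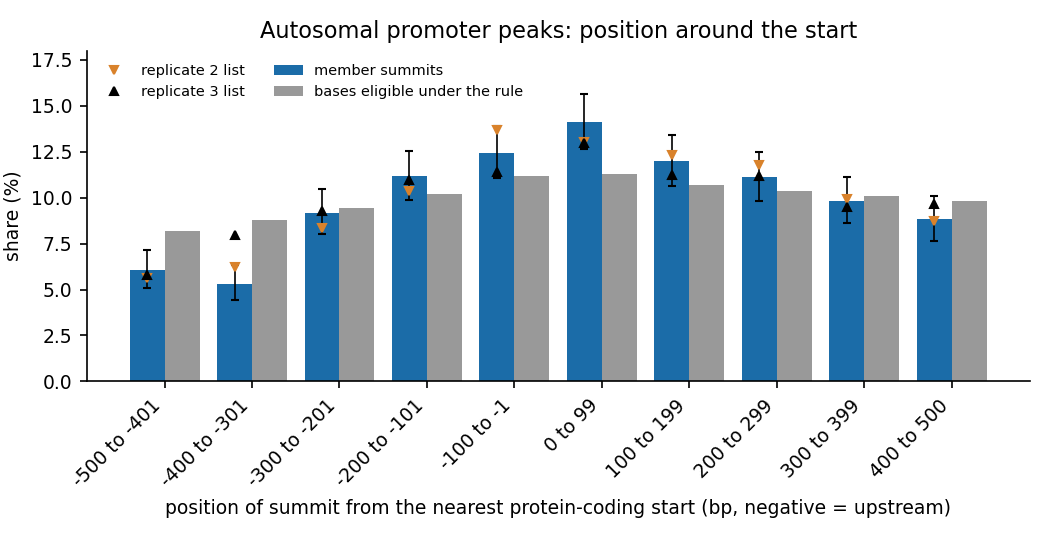
Share of summits (y axis, %) by position relative to the nearest protein-coding start (x axis, in stretches of 100 bp, negative values upstream), for members (blue, with exact 95% intervals) and for eligible bases (grey); triangles give the 2 replicate lists. Members reach 14.1% at 0 to 99 bp, against 11.3% of eligible bases, and 5.33% at -400 to -301 bp, against 8.79%.

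In gene models, coding exons held the most members, 724 of 2178 (33.2%, 31.3 to 35.3%), against 30.1% of eligible bases. Untranslated exons held 245 (11.2%, 9.95 to 12.7%) against 8.31%. Sequence outside protein-coding genes held 636 (29.2%) against 32.2%, and introns 573 (26.3%) against 29.4%. Of the 16 optimal members, 8 lay outside genes, 6 in coding exons, 2 in introns and 0 in untranslated exons. Starts of 2 or more genes lay within 500 bp of 158 members (7.25%, 6.20 to 8.43%), against 5.99% of eligible positions. Divergent pairs of starts, such as that of set-16 and drr-2, accounted for 119 members (5.46%) against 4.56% of positions.

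Member windows were richer in G and C than the promoters they were drawn from. The 50 bp to either side of the summit had a median GC content of 38.6% (quartiles 30.7 and 47.5%), against 35.6% (29.7 and 41.6%) for 394273 windows spread evenly over the eligible bases. Autosomal peaks outside promoters and X promoter peaks both had a median of 40.6%. Windows of 50% GC and over made up 427 of the members (19.6%), against 5.52% of eligible windows, and those of 30 to 40% GC made up 30.1% against 43.4%.

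The excess of GC-rich windows was present in each part of the gene. Windows of 50% GC and over were 31.9% of members in coding exons, against 10.8% of eligible windows there. They were 16.4% against 3.46% outside genes, 11.2% against 2.86% in introns and 11.4% against 3.76% in untranslated exons. Around the summits the mean GC content was 40.02% at the centre and 36.4% and 36.7% at 500 bp to either side. A like rise was present in peaks outside promoters, with 40.6% at the centre and 36.7% at either end. At X promoters the values were 41.5% at the centre and 35.6% and 36.2% at the ends.

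GC content moved with signal and recurrence. Members under 30% GC were found in both replicates in 20% of cases, and those of 50% GC and over in 29.98% (25.7 to 34.6%). Outside promoters the same classes gave 18.4% and 28.7%. The median signal of members was 35.6 in the first of these classes and 38.6 in the second. The 16 optimal members had a median of 48.0% GC. How far base composition enters the promoter shares, or the motif shares and gene counts below, was not tested.

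**Figure D4:**
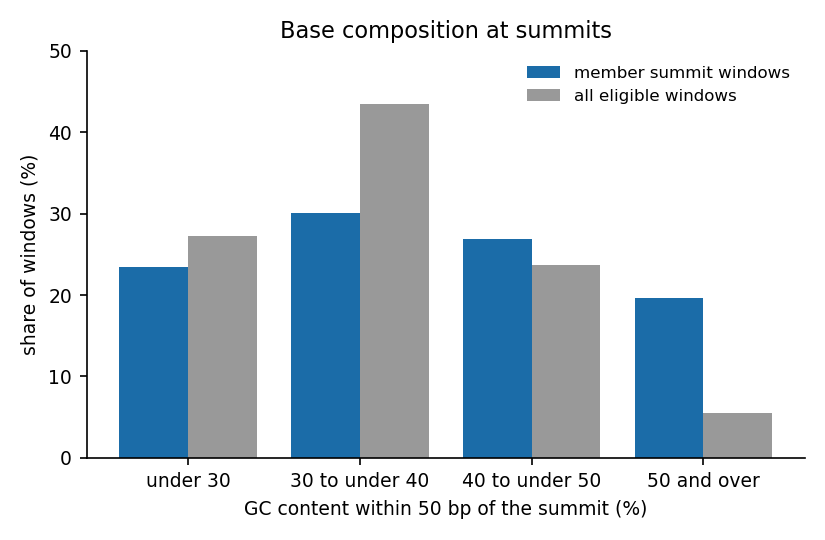
Share of windows (y axis, %) by the GC content within 50 bp of the summit (x axis), for members (blue) and for all eligible windows (grey). Windows of 50% GC and over are 19.6% of members and 5.52% of eligible windows, while windows of 30 to 40% GC are 30.1% and 43.4%.

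Motifs were counted in the same windows, on both strands, as descriptions without a test. The core element of nuclear receptors, AGGTCA with either purine as its first base, was in 84 member windows (3.86%, 3.09 to 4.75%), against 3.80% of eligible windows and 4.19% of windows of autosomal peaks outside promoters. Its variant AGTTCA was in 5.28% of members against 6.78% of eligible windows. The TATA box, TATAAA, was in 12.8% against 11.9%, the splice acceptor TTTCAG in 18.5% against 21.1%, and the GATA factor site GATAAG in 3.17% against 4.27%. None of the words searched contains another.

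Several words stood in a larger share of members than of eligible windows. GGGCGG, the site of Sp1-like factors, was in 3.35% of members against 1.85% of eligible windows, and in 3.37% of windows outside promoters. The E-box CACGTG was in 2.53% against 1.91%, and in 2.47% of windows outside promoters. GAGAGA was in 7.25% against 5.78%, and in 7.45% of windows outside promoters and 9.34% at X promoters. A run of 8 T on 1 strand went the other way, in 8.59% of members against 11.4% of eligible windows. GCGCAGGG, also searched, was in 0 member windows against 0.0259% of eligible windows. Member and eligible windows were not matched for GC content. The word AGCGTG, which was chosen because earlier results of these data had shown it, was in 54 members (2.48%) against 1.51% of eligible windows and 2.06% of windows outside promoters. It stood in 5 of the 16 optimal members, at rpl-3, tasp-1, egl-30, rpl-15 and dct-16, and in 1 of the 47 members of the next rank class. Among optimal peaks outside promoters 3 of 30 held it.

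Repeated sequence was a small part of the set. Of the 2178 member windows, 95 (4.36%) held a word of 32 bases that occurs elsewhere in the nuclear genome, against 7.36% of windows outside promoters and 4.07% at X promoters. Among the 16 optimal members only the window of dct-16 did, with 25 of its 70 words. Whether reads from other copies were placed at these peaks was not tested.

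Members were spread over the autosomes close to the eligible bases, apart from the highest. From I to V the chromosomes held 325, 426, 309, 452 and 666 members, or 14.9%, 19.6%, 14.2%, 20.8% and 30.6%. Of the eligible bases they held 16.9%, 19.6%, 14.98%, 20.2% and 28.3%. Of the 16 optimal members, 10 lay on III, 3 on I, 2 on IV, 1 on V and 0 on II. Chromosome III held 62.5% of this highest class, 19.1% of the next and 12.9% of the lowest. No test was made of these shares per chromosome. Of the 100 highest members it held 23 in the pooled list, 23 in replicate 2 and 21 in replicate 3. Outside promoters III held 9 of the 30 optimal peaks.

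The members named 1970 of 17242 autosomal protein-coding genes (11.4%) by the nearest start, and 482 of these genes had a member found in both replicates. The replicate lists gave 15.1% of genes in replicate 2 and 15.6% in replicate 3. Gene families were described by the share of their genes with a member, beside these shares over all genes, and no list was tested. Counts within a list of members found in both replicates stand beside 23.2% of all members.

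In the pooled list, heat shock and ribosomal protein genes had the highest shares of the lists with over 1 gene. Of the 79 ribosomal protein genes, 20 did (25.3%, 16.2 to 36.4%), with 25.3% in replicate 2 and 27.8% in replicate 3. Their density was 31.5 members per 100 kb of eligible sequence, against 11.05 over all genes. Besides rpl-3 and rpl-15, the highest was rpl-17, with its summit in a coding exon at 460 bp, a signal of 57.1 and no partner in replicate 3. Members at ribosomal protein genes had a median GC content of 50%, and 10 of the 20 had their summit in a coding exon.

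Of 31 aminoacyl tRNA synthetase genes, whose enzymes load amino acids onto tRNAs, 6 had a member (19.4%, 7.45 to 37.5%), with 35.5% in replicate 2 and 25.8% in replicate 3. The highest were at vars-1 (signal 55.2, summit at -6), kars-1 (44.7, at -30) and ears-2 (44.3, at 241 bp). Translation factors had members at 4 of 38 genes (10.5%), near the share of all genes, namely eif-3.C (signal 42.1), eif-3.E (39.4), eef-2 (34.6) and 1 other gene. The peaks of eef-2 and the other gene were found in neither replicate.

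Heat shock proteins, the chaperones of protein folding, had members at 6 of 19 genes (31.6%, 12.6 to 56.6%), with 26.3% in either replicate list. The hsp-1 gene, for the constitutive Hsp70, had a peak at -9 with a signal of 55.5, with 29.1 in replicate 2 and 32.003 in replicate 3. The hsp-110 gene had its highest peak at -218 (signal 46.2) and hsp-17 at -278 (39.0), all found in both replicates. Proteasome subunits, which degrade proteins, had members at 4 of 33 genes (12.1%), with pas-1 highest (signal 52.4), then pbs-3 (39.7) and pas-4 (38.2).

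Respiratory chain and ATP synthase genes had members at 5 of 31 (16.1%, 5.45 to 33.7%), led by cyc-2.1, a cytochrome c gene, with a signal of 59.0 at -236. The next, cox-7C (33.4) and cox-4 (33.1), were found in neither replicate. Vacuolar ATPase subunits had members at 2 of 17 genes (11.8%), vha-10 (signal 50.4) and vha-11 (39.4).

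Collagens of the cuticle had members at 23 of 146 genes (15.8%, 10.3 to 22.7%), with 13.7% in replicate 2 and 16.4% in replicate 3. Of the 24 summits 17 lay in a coding exon and 5 upstream of the start, and their windows had a median GC content of 59.9%. Collagen genes resemble each other, and 20.8% of these windows held repeated words. The highest peak was at col-122 (signal 69.1, at 451 bp), which had no partner in replicate 2. It was followed by sqt-3 (52.8) and col-88 (51.1), both found in both replicates. The astacin list, proteases some of which process collagens, had members at 2 of 31 genes, nas-4 and nas-32 (signal 47.4).

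Among regulators, the family of NHR-179 itself, the nuclear hormone receptors, had members at 33 of 247 genes (13.4%, 9.38 to 18.2%), with 19.8% in replicate 2 and 19.0% in replicate 3. The gene nhr-179 was not among the 33. The highest was nhr-114, a receptor that ties diet to fertility, with summits at 17 bp (signal 65.1, replicate 2 alone) and 216 bp (signal 54.0, both replicates). It was followed by nhr-217, with a signal of 61.5 at -311, 30.05 in replicate 2 and 30.2 in replicate 3, and nhr-241, with 54.3 at 38 bp. Of the 34 members at receptor genes, 7 were found in both replicates, beside 23.2% of all members. That 0 of them were optimal, beside 0.735% of all members, tells nothing about the family at this number of peaks. Density at receptor genes was 11.4 members per 100 kb against 11.05 over all genes. Homeobox factors had members at 9 of 63 genes (14.3%, 6.75 to 25.4%), led by ceh-38, ceh-88 (46.4) and ceh-99 (45.1), and 5 of these genes had one found in both replicates.

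The large families of F-box proteins and chemoreceptors had the lowest shares among the lists with a member in the pooled list, though not in each replicate list. Of 1231 chemoreceptor genes, 59 had a member (4.79%, 3.67 to 6.14%), with 8.29% in replicate 2 and 10.2% in replicate 3. Their density was 4.75 per 100 kb against 11.05 over all genes. The highest was str-204, with a signal of 55.7 and a partner in both replicates, then srw-95 (46.9) and srw-56 (45.1). F-box genes had 10 of 305 (3.28%, 1.58 to 5.95%), and 0 of those 10 peaks were found in both replicates. The highest were fbxb-72 (42.1), fbxb-75 (38.5) and fbxb-60 (36.4). Major sperm protein genes had 0 of 31, which allows a share of up to 11.2%.

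**Figure D5:**
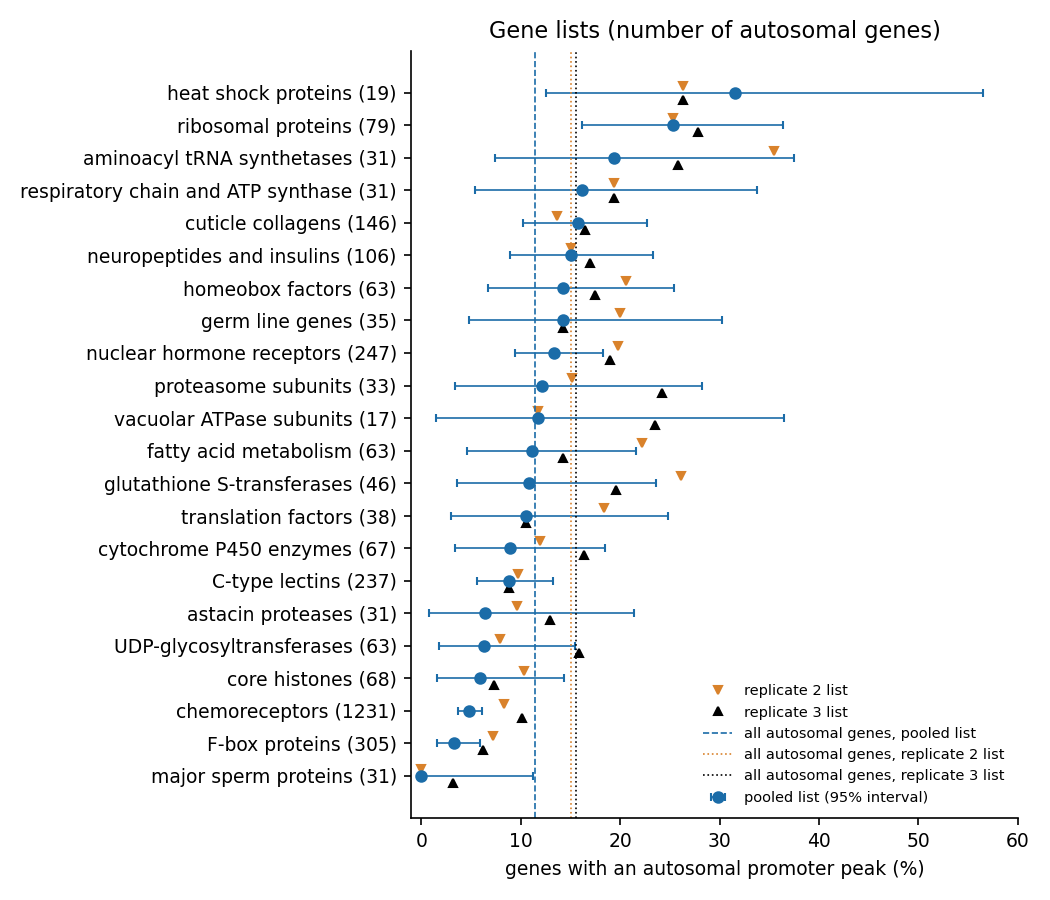
Share of the genes of each list with an autosomal promoter peak (x axis, %), with the number of genes in brackets; circles give the pooled list with exact 95% intervals, triangles the replicate lists and vertical lines the shares over all autosomal genes. Heat shock (31.6%) and ribosomal protein genes (25.3%) lie to the right of the 11.4% of all genes, and chemoreceptors (4.79%) and F-box genes (3.28%) to the left.

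A few genes carried several members. Of the 1970 genes 1794 had 1 member, 149 had 2, 23 had 3, 3 had 4 and 1 had 5. The gene with 5, Y62E10A.13, has starts spread along IV, and its peaks had signals of 31.3 to 39.96, of which 1 was found in both replicates. At egl-30 the optimal peak stood beside 3 others, at signals of 44.4, 39.7 and 34.5 along the gene's alternative starts. At dct-16 the optimal peak stood beside 3 with signals of 37.1 to 39.8, each found in 1 replicate. Of all members, 314 (14.4%) lay within 1000 bp of another.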

How the data were processed

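ChIP-seq peak lists on ce11 were used: 1 for each replicate, a pooled list and an optimal list made by the irreproducible discovery rate. Per the labels the lists exist on ce10 and ce11, and those on ce10 were not used. The deposited signal of each peak, on a scale not stated, and the deposited −log10 of a q-value were read as given, and the signal served only to rank and describe peaks. By signal, the 256 optimal peaks are those at the top of the pooled list. The aligner, peak caller, versions and threshold are not given in the sources used here, and depth is unknown.

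Summits were classed with Ensembl release 115 gene models of WBcel235, the same assembly as ce11, whose genome gave the sequences. Coordinates count from 1. Eligible windows were taken every 50 bp. Shares of peaks were compared by 2-sided Fisher's exact tests with Benjamini-Hochberg adjustment over 4 comparisons (scipy 1.17.1, pandas 2.3.3). The tests were tried on simulated counts drawn independently, a setting that does not cover peaks lying close together. The members, 23 gene lists, 10 motifs and tests were chosen with earlier results of these data known. The word AGCGTG and the repeat count were added after the data were seen. Named genes were those of all optimal members, the 15 next by signal found in both replicates, up to 3 per list by signal and the 3 with the most members. Sequences were printed for up to 8 of the first named, leaving out chromosome I and windows with untranslated exons, and 1 further sequence is not reported here. Alternatives changed the distances, gene models, lists and replicates.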

Additional observations from a re-analysis of the deposited data

How the results depend on the processing

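The share of autosomal peaks at promoters, 33.0%, was 19.9% with promoters drawn at 250 bp and 51.8% at 1000 bp, and 34.4% in the upper 50% of the pooled list by signal. It was 30.7% and 31.6% in the list of 1 replicate. The promoter share of bases, 24.0% at 500 bp, also changes with the distance and is not given here for 250 and 1000 bp. The difference in recurrence from peaks outside promoters, 1.63 points, was 3.34 at 250 bp (2-sided Fisher's exact test, adjusted p = 0.0411, past the threshold) and 0.211 to 2.40 when found in 1 replicate was counted. Against X promoter peaks it was -3.81 to 0.758 in the same setting, where the second value, without replicate 2, is in the other direction. The difference in optimal share from peaks outside promoters was -0.286 to 0.192 with the highest peaks of 1 replicate, the first without replicate 3 and in the other direction, and against X promoter peaks -0.432 to -0.401. With a longer list of the highest pooled peaks in place of the optimal list the first of these was 0.583 (Fisher's exact test, adjusted p = 0.230), and in the upper 50% of the pooled list the recurrence difference from X promoter peaks was -4.37 (Fisher's exact test, adjusted p = 0.610). The cause was not tested. Over all settings the adjusted p by Fisher's exact test ran from 0.0411 to 0.875, from 0.310 to 0.875, from 0.223 to 1 and from 0.223 to 0.499 for these 4 comparisons. Counting 1 summit per interval changed no value. Overlapping intervals still counted as separate peaks in that setting, so it did not address summits that lie close together. No paired analysis was possible because the 2 replicates form 1 group. Depth is unknown, so no limit on detection can be given.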

Other observations

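Genes of detoxification and lipid metabolism, processes that other nuclear hormone receptors are known to control, had members near or under the share of all genes in the pooled list (11.4%). Glutathione S-transferases had members at 5 of 46 genes (10.9%, 3.62 to 23.6%), with 26.1% in replicate 2 and 19.6% in replicate 3, against 15.1% and 15.6% of all genes in those lists. The highest, gst-8 (signal 51.2, at -186), was found in neither replicate, while gsto-1 (46.2) was found in both. Cytochrome P450 genes had members at 6 of 67 (8.96%), led by cyp-33C2 (40.9), cyp-35A1 (39.9) and cyp-13A7 (37.4), and none of the 6 was found in both replicates. UDP-glycosyltransferases had 4 of 63 (6.35%), with ugt-18 (36.7), ugt-15 (34.7) and ugt-60 (32.1). Fatty acid metabolism had 7 of 63 (11.1%, with 22.2% in replicate 2 and 14.3% in replicate 3), with acdh-2 (37.5), elo-8 (36.9) and elo-7 (35.8).

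Neuropeptides and insulins had members at 16 of 106 genes (15.1%, 8.88 to 23.4%), led by nlp-29, which encodes an antimicrobial peptide of the epidermis (signal 61.4, both replicates), ins-11 (52.0, neither replicate) and nlp-33 (49.7, replicate 3 alone). C-type lectins had 21 of 237 (8.86%), led by clec-150 (62.2), clec-251 (49.3) and clec-35 (45.3). Germ line genes had 5 of 35 (14.3%), with fem-2 (38.5), glh-1 (37.6) and mex-1 (37.3), and 0 of them were found in both replicates. The 1 autosomal vitellogenin gene, vit-6, which encodes a yolk protein, had a peak with a pooled signal of 58.0. It was found in replicate 3 alone, with a signal of 26.8 there. Core histones had 4 of 68 (5.88%), with his-61 (42.9), his-32 (41.3) and his-60 (39.6), but 75% of the member windows of this list held words repeated elsewhere. The peaks of his-32 and his-60 were found in neither replicate.

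Members lay in the middle 50% of their chromosome in 57.4% of cases, against 54.7% of eligible bases.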
